A study of Mus musculus with 24 samples.

Results

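The mouse mitochondrial genome encodes 37 genes, and all 37 were found by their mt- symbols in the gene tables of the CB RNA libraries, among 55401 genes listed there. They are 13 mRNAs, 2 ribosomal RNAs and 22 transfer RNAs, and they are the only genes that these tables list beyond the 55364 of the round spermatid tables. The study sequenced RNA of mouse testis germ cells with a knock-in at Ddx4, which encodes a helicase that marks germ granules. CB RNA came from testes homozygous for the DDX4 knock-in (3 libraries) and heterozygous for it (3 libraries), so every CB library analysed here carries the knock-in allele, and none is wild type. Round spermatid RNA, used here for the nuclear copies alone, came from homozygous, heterozygous and wild-type testes (2 libraries each). The labels do not spell out CB, give the cell type of these libraries as germ cells, and state neither the age of the animals nor whether libraries of a group came from separate animals. The p-values therefore measure the spread between these libraries, which may be technical.

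Mitochondrial DNA is transcribed from both strands into long precursors, from which transfer RNAs are cut out and the messenger and ribosomal RNAs between them are released. The proteins encoded are core subunits of respiratory complexes I, III and IV and of ATP synthase, and the ribosomal RNAs build the mitochondrial ribosome. In male germ cells, germ granules lie close to mitochondria, and several proteins of the piRNA pathway sit on the mitochondrial surface. CB libraries were prepared from 25 ng of RNA with a strand-specific kit that neither enriched poly(A) tails nor depleted ribosomal RNA, per the labels' protocols. In bulk RNA, fewer mitochondria or cells and less RNA in each cannot be told apart.

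Homozygous CB libraries held 15580415 to 16474872 counts and heterozygous ones 14205962 to 14704922. Heterozygous library 1 stood apart from the other libraries of its genotype, with a chi-square per degree of freedom of 28.6 and 28.5 against libraries 2 and 3, which differed from each other by 5.27. Levels are given as CPM, the count of a gene relative to the library size scaled by TMM factors. Ddx4 itself had 303, 306 and 244 CPM in homozygous libraries, against 277, 312 and 365 in heterozygous libraries (log2 change -0.16, SE 0.133, adjusted p = 0.649 by edgeR). The genotype labels do not state what was inserted, so this level does not check the genotype.

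Mitochondrial RNA was a small part of every library, and it was smaller on average in homozygous libraries. The 37 genes took 0.304%, 0.342% and 0.191% of counts in homozygous libraries 1, 2 and 3, against 0.61%, 0.354% and 0.527% in the heterozygous libraries of the same numbers. In these counts every homozygous library lay below every heterozygous one, but homozygous library 2 and heterozygous library 2 were close to each other. The means were 0.279% ± 0.0786 and 0.497% ± 0.131 (SD, n = 3 each; exact two-sided permutation p = 0.1, the smallest that 3 against 3 allows). This and the other 6 values per library tested in this way did not pass, with Benjamini-Hochberg values of at least 0.175 over the 7. The full separation of this share was lost when reads of likely nuclear copies, described further on, were added. The difference was then -0.226 percentage points (exact two-sided permutation p = 0.2). It was also lost in deposited TPM, which is scaled by length (difference -0.421, exact two-sided permutation p = 0.2).

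Summed by class, the difference lay more in the ribosomal RNAs than in the mRNAs. Single mRNAs spread to either side of the rRNAs in log2 change, as described below. They ran from -1.96 for mt-Nd2 to -0.09 for mt-Co1, the most abundant, beside -1.25 and -1.34 for the rRNAs. Mitochondrial rRNA took 0.0945%, 0.122% and 0.0606% of counts in homozygous libraries and 0.266%, 0.156% and 0.246% in heterozygous libraries, without overlap (exact two-sided permutation p = 0.1). The 13 mRNAs took 0.21%, 0.22% and 0.131% in homozygous libraries and 0.344%, 0.198% and 0.281% in heterozygous ones, and here the genotypes overlapped (exact two-sided permutation p = 0.3). As a share of mitochondrial counts, rRNA made up 32.8% ± 2.48 in homozygous and 44.8% ± 1.68 in heterozygous libraries (SD, n = 3 each; exact two-sided permutation p = 0.1), again without overlap.

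**Figure D1:**
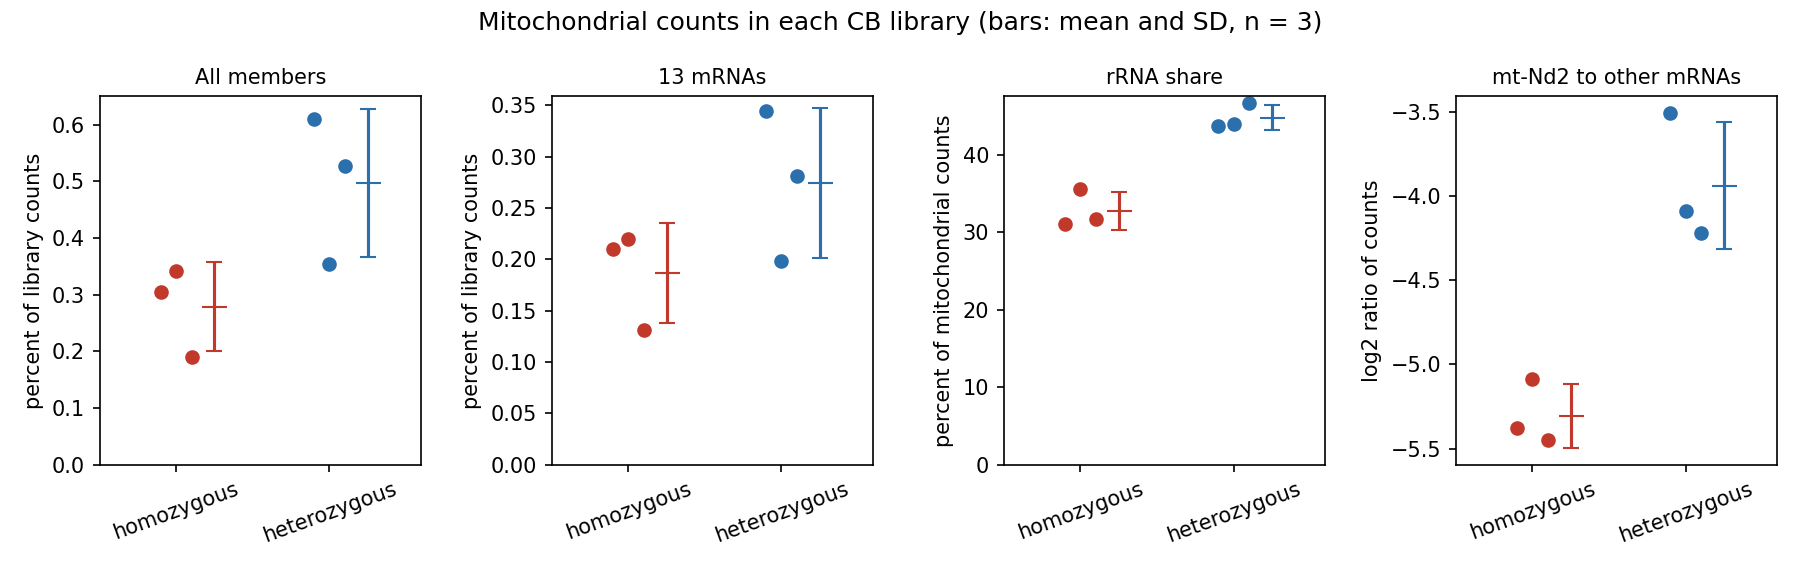
Mitochondrial counts in each CB library: percent of library counts on all members and on the 13 mRNAs, rRNA as a percent of mitochondrial counts, and the log2 ratio of mt-Nd2 to the other mRNAs. Dots are libraries and bars the mean and SD of 3. In these counts, without reads of nuclear copies, the genotypes overlap for the 13 mRNAs and not in the other panels.

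Of the 37 genes, 15 had enough counts to be tested, all 13 mRNAs and both rRNAs. The test was edgeR's quasi-likelihood F test on counts of all 19335 genes that passed the low-count filter, with a Benjamini-Hochberg adjusted p under 0.05 as the call. It called 3 of the 15 lower in homozygous libraries, mt-Rnr1, mt-Nd2 and mt-Nd4l, and 0 higher. Over all genes tested 1.72% were called, 0.559% lower and 1.16% higher. At an unadjusted p under 0.05 there were 8 of the 15, all lower, against 14.5% of all genes in either direction and 6.87% lower. DESeq2 called 6 lower and 0 higher, adding mt-Rnr2, mt-Nd5 and mt-Cytb. Over all 40133 genes given to it, DESeq2 called 185 lower and 373 higher. In 7 of the 15 every homozygous library lay below every heterozygous one, a pattern shown by 9.78% of all genes tested. The median log2 change of the 15 was -1.10, beside -0.005 over all genes tested. Homozygous library 3 was lowest for 12 of the 15 and heterozygous library 1 highest for 11.

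**Figure D2:**
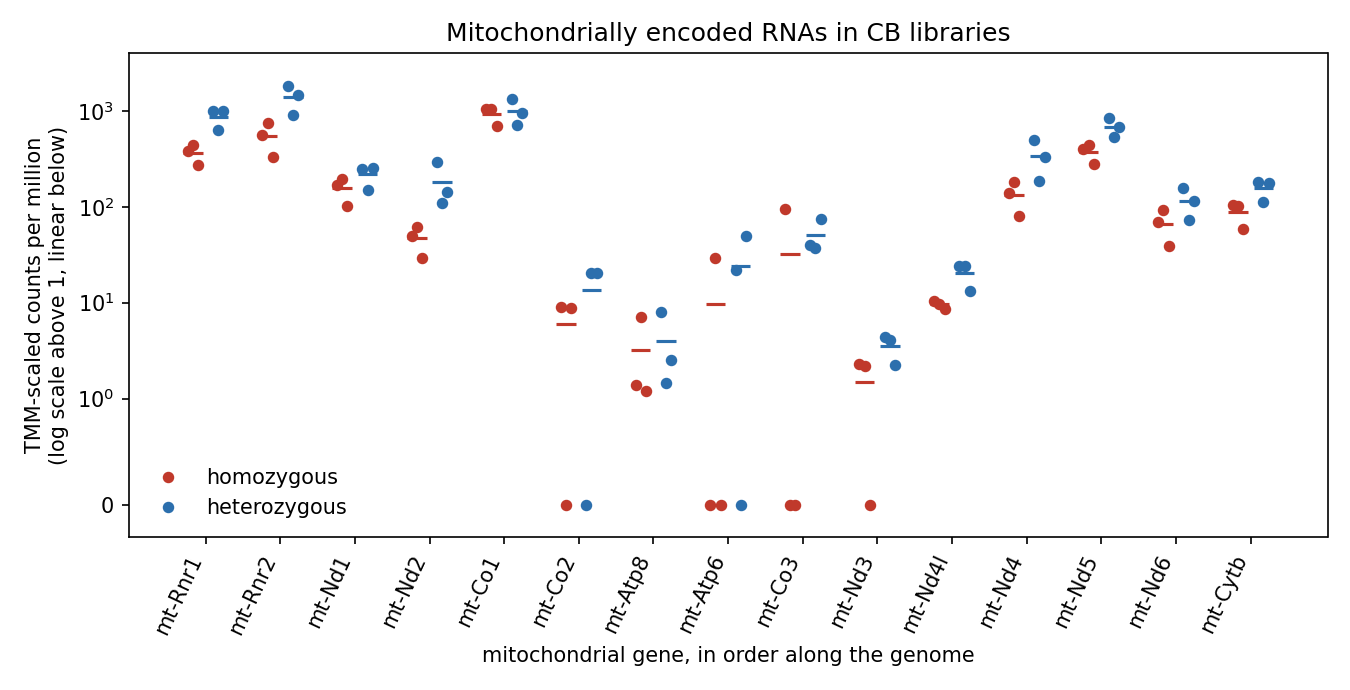
Level of each tested mitochondrial gene in every CB library (TMM-scaled CPM, log scale above 1), in order along the genome; dots are libraries and short lines group means. The 3 homozygous libraries lie below the 3 heterozygous ones for both rRNAs, mt-Nd2, mt-Nd4l, mt-Nd4, mt-Nd5 and mt-Cytb, and dots at 0 mark genes that received no read in a library.

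The ribosomal RNA genes lie nearest the heavy-strand promoter. The small-subunit rRNA, mt-Rnr1 (ENSMUSG00000064337, mitochondrial positions 70 to 1024 in GRCm38.p6), had 381, 445 and 273 CPM in homozygous libraries, against 996, 631 and 987 in heterozygous libraries. The groups did not overlap, and mt-Rnr1 was called lower, with a log2 change of -1.25 (SE 0.209, adjusted p = 0.0164). The call was lost without any 1 homozygous library or heterozygous library 3 (adjusted p = 0.0559 to 0.103). The large-subunit rRNA, mt-Rnr2 (positions 1094 to 2675), had 564, 753 and 331 CPM in homozygous libraries and 1810, 907 and 1469 in heterozygous ones. It also did not overlap between genotypes, yet its log2 change of -1.34 just missed the threshold (SE 0.299, adjusted p = 0.0551). DESeq2 called it lower (adjusted p = 0.0461). The log2 ratio of mt-Rnr2 to mt-Rnr1 counts was 0.57, 0.76 and 0.28 in homozygous libraries and 0.86, 0.52 and 0.57 in heterozygous ones, which overlap (exact two-sided permutation p = 0.5).

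Complex I, the NADH dehydrogenase that feeds electrons into the chain, takes 7 subunits from mitochondrial DNA, and 2 of these 7 mRNAs were called lower. The one with the largest log2 change among all members was mt-Nd2 (ENSMUSG00000064345, positions 3914 to 4951). It had 49.1, 61.8 and 29.0 CPM in homozygous libraries, against 292, 109 and 142 CPM in heterozygous libraries. All 3 homozygous values lay below the lowest heterozygous value, and heterozygous library 1 held by far the highest (log2 change -1.96, SE 0.357, adjusted p = 0.0241). Without heterozygous library 1 the change was -1.44 and was still called (adjusted p = 0.0023), but the call was lost without any 1 homozygous library or heterozygous library 3 (adjusted p = 0.0589 to 0.129).

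The other called subunit, mt-Nd4l (ENSMUSG00000065947, positions 9877 to 10173), stood at 10.5, 9.65 and 8.63 CPM in homozygous libraries, and at 24.4, 24.3 and 13.1 CPM in heterozygous libraries. These values do not overlap (log2 change -1.10, SE 0.223, adjusted p = 0.0374). The call was lost without any 1 homozygous library or heterozygous library 2 (adjusted p = 0.123 to 0.187), and the gene probably shares reads with a nuclear copy described further on. Its neighbour mt-Nd4 (positions 10167 to 11544) had 140, 181 and 80.1 CPM in homozygous libraries and 492, 184 and 330 CPM in heterozygous libraries. Homozygous library 2 and heterozygous library 2 nearly met, and the log2 change of -1.33 was not called (SE 0.344, adjusted p = 0.0949). The longest mRNA, mt-Nd5 (positions 11742 to 13565), had 398, 442 and 279 CPM in homozygous libraries and 844, 532 and 670 in heterozygous ones, without overlap, and just missed the call (log2 change -0.87, SE 0.197, adjusted p = 0.0578).

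The remaining complex I mRNAs differed less. For mt-Nd1 (positions 2751 to 3707) the values were 169, 194 and 102 CPM in homozygous libraries, against 246, 150 and 255 CPM in heterozygous libraries, which overlap (log2 change -0.48, SE 0.244, adjusted p = 0.403). For mt-Nd6 (positions 13552 to 14070), the only mRNA on the light strand, they were 68.9, 91.6 and 39.0 CPM in homozygous libraries and 155, 72.4 and 116 CPM in heterozygous ones, also with overlap (log2 change -0.78, SE 0.307, adjusted p = 0.27). As a share of mitochondrial mRNA counts mt-Nd6 held 3.5% ± 0.647 in homozygous and 4.04% ± 0.305 in heterozygous libraries (SD, n = 3 each; exact two-sided permutation p = 0.3). The 3' ends of mt-Nd5 and mt-Nd6 share 14 bases on opposite strands. Use of strand in counting was not given in the sources used here, so reads of mt-Nd6 cannot be told apart from antisense reads. Of mt-Nd3 (positions 9459 to 9806) there were 0 to 2.31 CPM in homozygous and 2.24 to 4.37 CPM in heterozygous libraries (log2 change -1.24, SE 0.678, adjusted p = 0.449).

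Cytochrome b, the catalytic subunit of complex III, is encoded by mt-Cytb (positions 14145 to 15288). It had 104, 102 and 58.8 CPM in homozygous libraries, against 179, 111 and 177 CPM in heterozygous libraries, just without overlap (log2 change -0.82, SE 0.231, adjusted p = 0.126). Complex IV, cytochrome c oxidase, takes its catalytic core from mt-Co1, mt-Co2 and mt-Co3, and edgeR called 0 of these 3 mRNAs (0 at an unadjusted p under 0.05, 0 by DESeq2). The most abundant, mt-Co1 (ENSMUSG00000064351, positions 5328 to 6872), had 1049, 1042 and 695 CPM in homozygous libraries and 1314, 712 and 946 in heterozygous ones. The ranges lay almost on top of each other (log2 change -0.09, SE 0.222, adjusted p = 0.897), and the sign turned when homozygous library 3 (0.08) or heterozygous library 1 (0.15) was left out. For mt-Co2 (positions 7013 to 7696) 0 to 9.04 CPM were listed in homozygous and 0 to 20.6 in heterozygous libraries (log2 change -1.19, SE 1.08, adjusted p = 0.685). For mt-Co3 (positions 8607 to 9390) 0 to 95.4 CPM were listed in homozygous and 36.8 to 74.7 in heterozygous libraries (log2 change -0.66, SE 1.30, adjusted p = 0.869).

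The ATP synthase subunits mt-Atp8 (positions 7766 to 7969) and mt-Atp6 (positions 7927 to 8607) overlap by 43 bases. Counts of mt-Atp8 were 23, 112 and 20 in homozygous and 112, 21 and 36 in heterozygous libraries, with full overlap (log2 change -0.31, SE 0.705, adjusted p = 0.891). With the trend on transcript length removed, or without heterozygous library 1, homozygous library 1 or homozygous library 3, its sign turned. Counts of mt-Atp6 were 0, 461 and 0 in homozygous and 303, 0 and 712 in heterozygous libraries (log2 change -1.31, SE 1.44, adjusted p = 0.748).

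**Figure D3:**
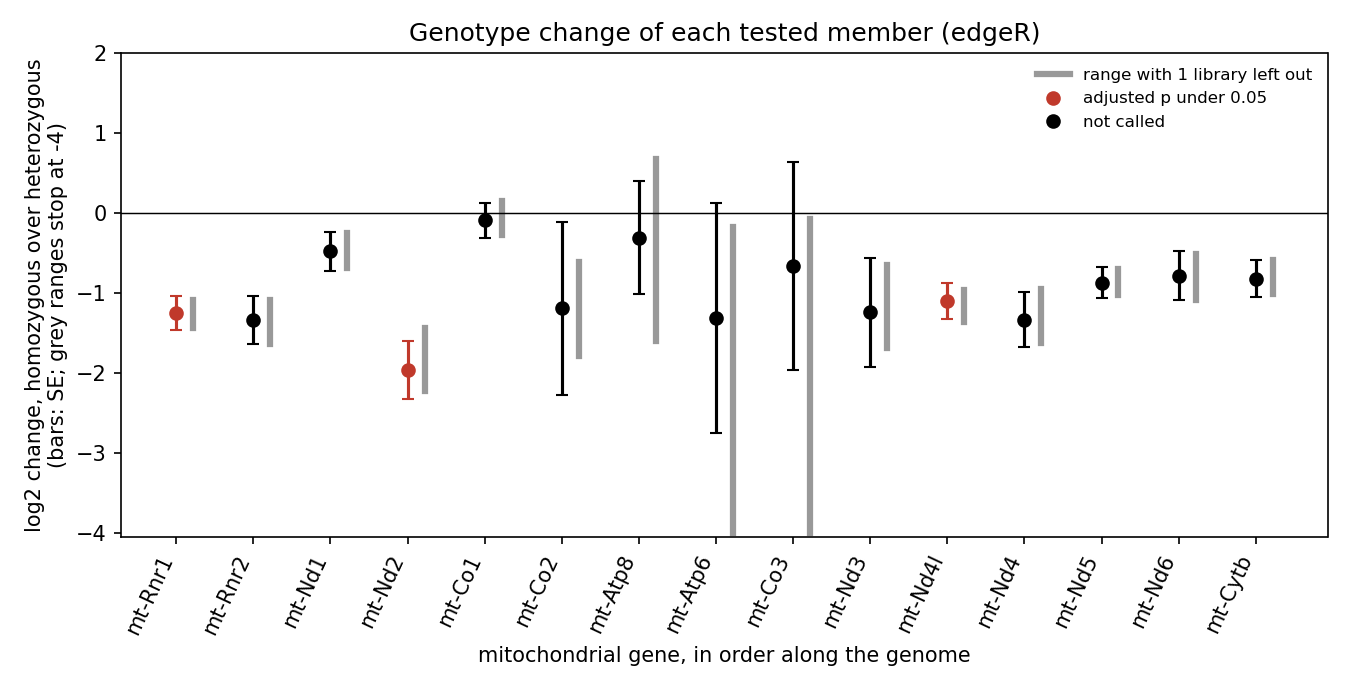
Fitted log2 change (homozygous over heterozygous) of the 15 tested genes in order along the genome, with SE bars; red marks the 3 genes with adjusted p under 0.05, and grey bars span the values with 1 library left out, drawn down to -4. Changes run from -1.96 for mt-Nd2 to -0.09 for mt-Co1, and the widest errors belong to mt-Co2, mt-Atp6 and mt-Co3.

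The irregular counts of several mRNAs coincide with nuclear genes of nearly the same length. Expected counts were whole numbers within 0.005 in all 6 libraries for 9 of the 15 tested genes. They were fractional in at least 1 library for the other 6, which are mt-Co1, mt-Co2, mt-Atp6, mt-Co3, mt-Nd3 and mt-Nd4l. Estimators of expected counts give fractions where they divide a read between genes that it matches. Except for mt-Co1, each of these has a nuclear gene 1 to 3 bases shorter in deposited length. These nuclear genes also received reads and are likely copies of mitochondrial DNA. The pairs are mt-Co2 with Gm28661, mt-Atp6 with Gm10925, mt-Co3 with Gm28437, mt-Nd3 with Gm28438 and mt-Nd4l with Gm10222. For mt-Co1 the nuclear gene Gm13340 has the same length of 1545 bases, and it received 1 to 6 reads in every CB library, too few to alter mt-Co1 at its 10237 to 18347 counts. The pairs were matched by length after the counts had been seen, and their sequences were not compared here. RefSeq gives mt-Atp6 as a synonym of the pseudogene Gm10925 (chromosome 1, 24613971 to 24614651 in GRCm38.p6). Gm10222 lies at 24612404 to 24612700, so this pair of copies spans 2248 bases, where mt-Atp6 to mt-Nd4l spans 2247 on the mitochondrial genome. The RefSeq spans of Gm10925 and Gm10222 are longer than their deposited lengths of 678 and 294 bases.

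The division of reads varied from library to library. In 8 of the 30 combinations of pair and library the mitochondrial gene received no read while its nuclear partner did. For mt-Co3 the mitochondrial gene took 1572 of 1930 reads in homozygous library 1, but 0 of 1883 and 0 of 731 in homozygous libraries 2 and 3. In heterozygous libraries it took 557 of 2079, 529 of 1004 and 1066 of 1573 reads. For mt-Co2 the partner Gm28661 took nearly everything, with 3409, 4079 and 2313 reads in homozygous and 7116, 2032 and 2523 reads in heterozygous libraries. A gene listed at 0 here may therefore have had reads that were counted on its partner.

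Adding each copy's reads to its mitochondrial gene, a step chosen after seeing the data, narrowed the spread of these genes relative to their means. The exception was mt-Nd4l in homozygous libraries, with SD 0.936 at a mean of 9.59 CPM alone and 4.13 at 22.3 CPM as the sum. The sum of mt-Co3 and Gm28437 was 117, 119 and 44.4 CPM in homozygous libraries, against 149, 69.9 and 110 CPM in heterozygous libraries (log2 change -0.23, SE 0.344, adjusted p = 0.817). For mt-Atp6 and Gm10925 it was 51.5, 60.0 and 30.4 CPM in homozygous libraries and 81.5, 45.7 and 78.0 CPM in heterozygous ones (log2 change -0.53, SE 0.257, adjusted p = 0.379). The sums of mt-Co2 (log2 change -0.48, adjusted p = 0.616) and mt-Nd3 (-0.46, adjusted p = 0.655) likewise overlapped between genotypes. For mt-Nd4l and Gm10222 the sum was 23.2, 25.9 and 17.7 CPM in homozygous libraries, against 75.5, 42.6 and 53.2 CPM in heterozygous libraries. It did not overlap and stayed called lower (log2 change -1.36, SE 0.208, adjusted p = 0.0105). With these sums 3 of the 15 tested members were again called lower, where 107 of 19330 genes were called lower. The median log2 change of the 15 was -0.78 in place of -1.10.

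**Figure D4:**
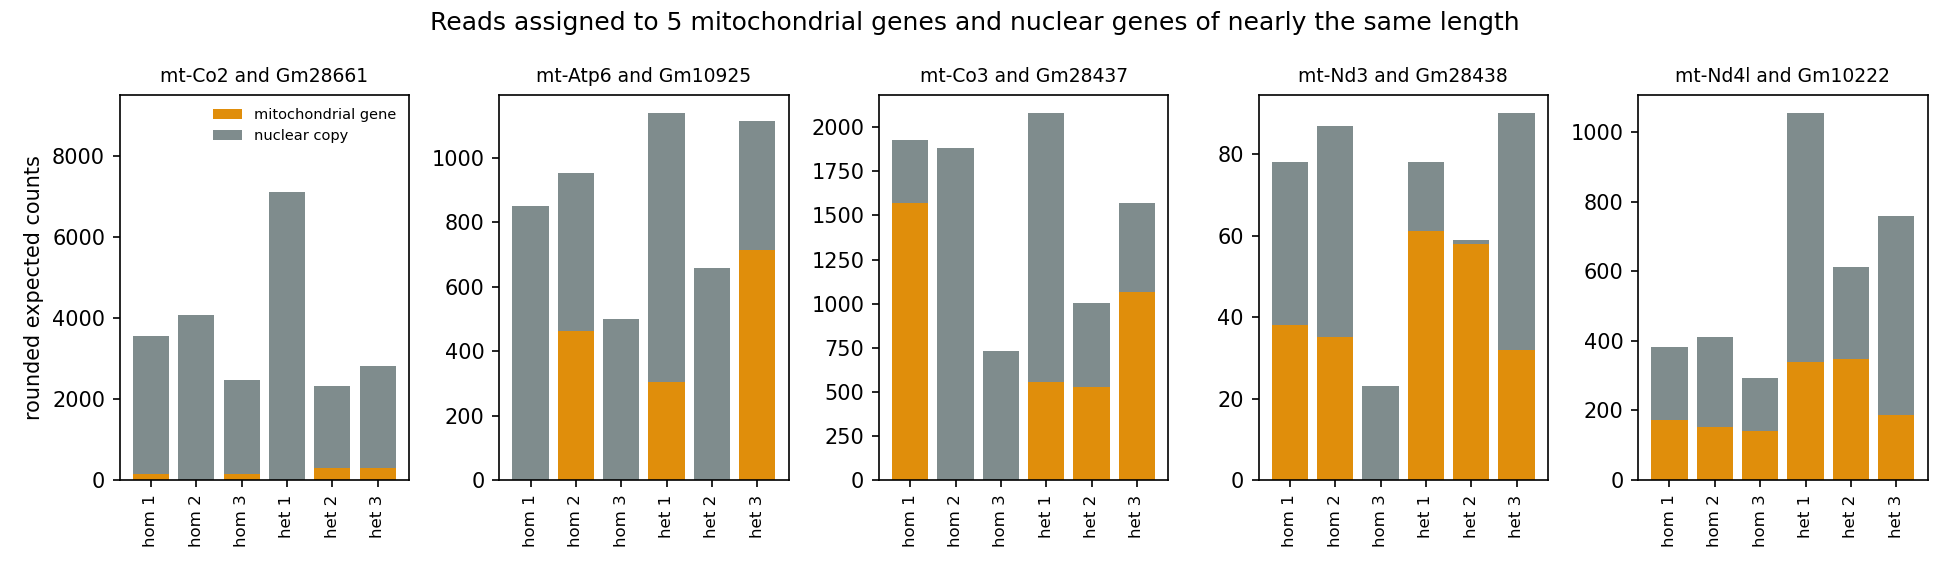
Rounded expected counts of 5 mitochondrial genes (orange) stacked on those of the nuclear gene of nearly the same length (grey) in each CB library (hom, homozygous; het, heterozygous). The split differs between libraries, and 8 of the 30 bars hold no orange part.

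Transfer RNAs could not be measured in these tables. The 22 are 59 to 75 bases long, and the deposited effective length, the number of start positions open to a fragment of the library's usual size, was 0 for each in every library. In all 6 libraries together they received 1 read, on mt-Ts1 in heterozygous library 1. Of the 5106 genes with an effective length of 0 in all CB libraries, 69 received any read. Zero counts here therefore put no limit on tRNA abundance. The same effect touches mt-Atp8, which is 204 bases long with an effective length of 11.8 to 21.1 bases over the libraries, and mt-Nd4l, 297 bases long with 69.0 to 87.0, so their levels per length rest on few start positions.

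Per length (mean TPM), mt-Co1 led the homozygous libraries with 1545 ± 333, ahead of mt-Rnr1 with 1104 ± 251 and mt-Rnr2 with 889 ± 340. In heterozygous libraries mt-Rnr1 led with 2370 ± 542, ahead of mt-Rnr2 with 2029 ± 583 and mt-Co1 with 1479 ± 369 (SD, n = 3 each). The spreads of neighbours among these 3 genes overlap in either order. Among complex I mRNAs, mt-Nd5 had 512 ± 115 TPM in homozygous and 843 ± 150 TPM in heterozygous libraries. At the low end of those with whole counts stood mt-Nd2 in homozygous libraries, at 126 ± 43.7 TPM against 434 ± 203 TPM in heterozygous ones, where mt-Cytb was lower at 336 ± 80.4 TPM.

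The make-up of mitochondrial mRNA was compared as the share of each mRNA. For 9 of the 13 mRNAs the shares overlapped between genotypes, and for 4 they did not (mt-Co1, mt-Nd2, mt-Nd4 and mt-Nd5). Of mitochondrial mRNA counts mt-Co1 held 50.0%, 48.2% and 53.4% in homozygous libraries, against 36.3%, 36.4% and 33.8% in heterozygous libraries. The complex I mRNAs together held 40.0%, 45.4% and 41.3% in homozygous libraries, against 56.8%, 54.9% and 54.6% in heterozygous ones. Neither share overlapped between genotypes, and neither did with the copies' reads added. The share of mt-Co1 was then 43.8%, 40.2% and 45.5% in homozygous libraries and 30.2%, 32.5% and 30.7% in heterozygous ones. Shares of 1 total are not independent, since a higher share of mt-Co1 leaves less for complex I. They were singled out after the values were seen and carry no test. In CPM of all counts without TMM factors, complex I mRNAs had 793 ± 234 in homozygous and 1524 ± 433 in heterozygous libraries. Complex IV mRNAs had 973 ± 237 in homozygous and 1036 ± 254 in heterozygous libraries (SD, n = 3 each).

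The mRNA of largest log2 change, mt-Nd2, was also set against the other mRNAs, which describes a gene singled out for its change. The log2 ratio of mt-Nd2 to the 12 other mRNAs was -5.38, -5.09 and -5.45 in homozygous libraries, against -3.51, -4.09 and -4.22 in heterozygous libraries. The difference of -1.37 was without overlap (Benjamini-Hochberg value 0.175 over the 7 exact permutation tests, which did not pass), and it was between -1.51 and -1.15 when any 1 library was left out. Set against its neighbours mt-Nd1 and mt-Co1 alone, the difference was -1.75. Counts of mt-Nd1 over those of mt-Nd2 were 3.45, 3.15 and 3.51 in homozygous libraries and 0.841, 1.38 and 1.79 in heterozygous libraries. All 3 homozygous ratios lay above the highest heterozygous one, and heterozygous library 1 was the sole library with more counts on mt-Nd2 than on mt-Nd1. The ratio of mt-Nd5 to mt-Nd6 counts, 5.92 ± 1.17 and 6.19 ± 1.02 in homozygous and heterozygous libraries (SD, n = 3 each), overlapped.

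**Figure D5:**
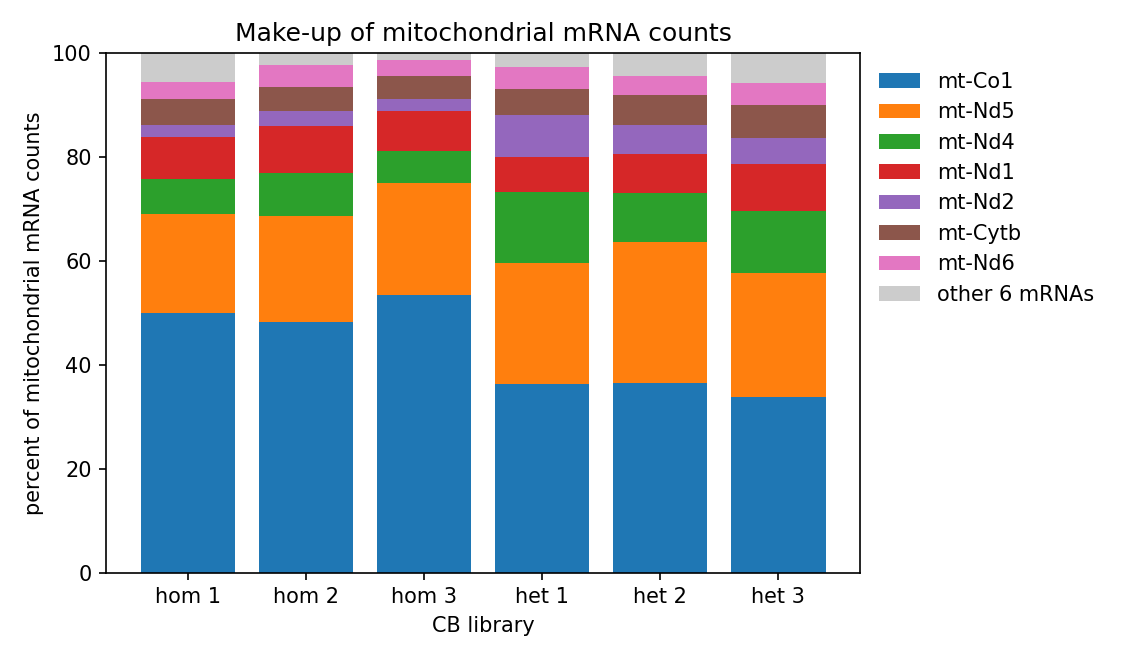
Share of each mRNA in the mitochondrial mRNA counts of every CB library (hom, homozygous; het, heterozygous), in percent. The share of mt-Co1 is 48.2% to 53.4% in homozygous and 33.8% to 36.4% in heterozygous libraries, and that of mt-Nd2 is 2.23% to 2.86% in homozygous and 5.08% to 8.07% in heterozygous libraries.

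Nuclear genes of mitochondrial function were followed in 8 lists, of which edgeR called 2 of 244 tested genes (0.82%), beside 1.72% of all genes tested. EdgeR called 0 of 15 genes of mitochondrial DNA maintenance and transcription (median log2 change -0.01; 3 at an unadjusted p under 0.05, 0 by DESeq2). Those of smallest p were Top1mt, a mitochondrial topoisomerase (0.67, adjusted p = 0.146), and Tfam, which packs mitochondrial DNA and takes part in its transcription (-0.29, adjusted p = 0.285). EdgeR also called 0 of 18 RNA processing and modification genes (median -0.17; 2 unadjusted). There Nsun4, a methyltransferase of the small-subunit rRNA, had 464, 444 and 466 CPM in homozygous libraries and 570, 615 and 617 in heterozygous ones (log2 change -0.39, SE 0.0991, adjusted p = 0.0869). It was the 1 gene of this list called lower by DESeq2. Of 17 RNA stability and decay genes 0 were called (median 0.06; 2 unadjusted, 0 by DESeq2), with smallest p for Supv3l1, the helicase of the mitochondrial degradosome (0.42, adjusted p = 0.237), and Ptcd1 (0.25, adjusted p = 0.336).

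Of 17 mitochondrial tRNA synthetase genes 1 was called, Lars2, which charges leucine tRNA. It had 5276, 5396 and 5527 CPM in homozygous libraries, against 7843, 11489 and 11086 CPM in heterozygous libraries (log2 change -0.91, SE 0.171, adjusted p = 0.0277), so it alone made up most of that list's counts. The libraries ranked in the same order for Lars2 as for the clone-named CT010467.1 described below (log2 change -0.98). Whether the reads counted on Lars2 came from its mRNA was not tested. Of 82 mitochondrial ribosome genes 0 were called (median -0.02; 3 unadjusted, 0 by DESeq2), led by Mrpl38 (0.31, adjusted p = 0.264) and Mrpl53 (-0.45, adjusted p = 0.314). Of 73 nuclear genes of respiratory chain subunits 0 were called (median 0.01; 4 unadjusted, 0 by DESeq2), led by Atp5e (-0.87, adjusted p = 0.102) and Ndufa7 (-0.66, adjusted p = 0.139). Among 10 genes of testis mitochondrial proteins Spata18, linked to mitochondrial quality control, was lower, with 195, 190 and 213 CPM in homozygous libraries against 285, 317 and 291 CPM in heterozygous libraries (log2 change -0.58, SE 0.1, adjusted p = 0.0187). Of 12 germ granule genes with products at or near mitochondria 0 were called (median 0.07; 0 unadjusted, 0 by DESeq2), led by Tdrd1 (0.46, adjusted p = 0.358) and Pld6 (-0.20, adjusted p = 0.509). Without heterozygous library 1 the lists had 10 called of 246 tested (4.07%), where 11.0% of all genes were called. With any other library left out the lists had 0 called (11 to 21 at an unadjusted p under 0.05). Over all genes 51 to 130 were called there, of 19832 to 20006 tested.

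Other contents of the libraries moved with genotype too. The gene of highest mean count, the clone-named CT010467.1, took 6.52%, 6.67% and 6.88% of counts in homozygous libraries, against 11.3%, 14.0% and 13.7% in heterozygous libraries (log2 change -0.98, adjusted p = 0.0398). With the 10 nuclear genes of highest mean count left out, the difference in the share of mitochondrial counts was -0.288 percentage points, beside -0.218 with them. Elongating spermatid markers summed to 2241 to 2343 CPM in homozygous libraries and 3327 to 3521 CPM in heterozygous ones, with 5 of 10 called lower, beside 0.559% of all genes, among them Prm1 (-1.27), Odf1 (-0.83), Oaz3 (-0.84) and Tssk6 (-0.73). Without heterozygous library 1, 8 of the 10 were called lower, beside 3.96% of all genes. Pachytene markers summed to 2936 to 3028 CPM in homozygous and 2182 to 2971 CPM in heterozygous libraries, and round spermatid markers to 571 to 638 CPM in homozygous and 506 to 687 CPM in heterozygous ones, with Spaca1 (-0.49) called lower. Spermatogonial markers summed to 89.3 to 91.2 CPM in homozygous and 51.2 to 107 CPM in heterozygous libraries. Sertoli markers summed to 87.6 to 92.3 CPM in homozygous and 72.8 to 136 CPM in heterozygous libraries, Leydig markers to 136 to 146 in homozygous and 70.1 to 122 in heterozygous ones, and erythroid markers to 4.98 to 6.07 in homozygous and 4.01 to 8.21 in heterozygous ones. Immune markers summed to 6.99 to 10.3 CPM in homozygous and 3.8 to 7.65 CPM in heterozygous libraries, with Cd74 (1.59) called higher. Peritubular markers summed to 26.9 to 28.3 CPM in homozygous and 38.9 to 43.5 CPM in heterozygous libraries, with Actg2 (-0.91) called lower. No marker list had a gene at 0 in all libraries. The part of these differences in the mitochondrial values was not tested.

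The calls of mt-Rnr1 and mt-Nd2 were lost without any 1 homozygous library or heterozygous library 3. That of mt-Nd4l was lost without any 1 homozygous library or heterozygous library 2. Calls over all genes fell as well, from 332 to 51, 56 and 75 without homozygous library 1, 2 or 3. They fell to 130 and 106 without heterozygous library 2 or 3, and rose to 2213 without heterozygous library 1. Without homozygous library 2 or 3 edgeR called 0 of the 15 tested members (11 and 7 at an unadjusted p under 0.05; no other tool was run without them). Few genes of any kind were called lower there, 10 of 19832 without homozygous library 2 and 15 of 19934 without homozygous library 3. Without homozygous library 1 it called mt-Co3 alone, where 10 of 19932 genes were called lower. That change of -12.56 came from 0 reads in homozygous libraries 2 and 3, where the partner Gm28437 took 1883 and 731. With the copy's reads added, over all 6 libraries, it was -0.23 and not called. Without heterozygous library 3 edgeR called mt-Nd4l alone, where 29 of 20006 genes were called lower. Without heterozygous library 1 edgeR called 5 lower, which were mt-Rnr1, mt-Rnr2, mt-Nd2, mt-Nd5 and mt-Nd4l, where 3.96% of all genes were called lower. Without heterozygous library 2 it also called 5 lower, with mt-Nd4 in place of mt-Nd4l, where 0.195% of all genes were called lower and 0.65% in either direction. The log2 change of mt-Rnr1 was between -1.44 and -1.08 and that of mt-Nd2 between -2.22 and -1.44 over the 14 alternatives run.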

How the data were processed

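Mitochondrial RNA was measured in 6 CB RNA libraries. For each, the authors deposited a table of expected counts, TPM, length and effective length by Ensembl gene, per the file headers. Expected counts, which can be fractional, were rounded; TPM deposited by the authors, scaled by length and library, served for levels per length. The submitters' processing notes name Trim Galore and mm10; neither aligner nor quantifier was given in the sources used here. Positions are from RefSeq for GRCm38.p6.

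Counts were tested with edgeR 4.0.16 (R 4.3.3; TMM, filterByExpr, quasi-likelihood F test, Benjamini-Hochberg over all genes, threshold 0.05). The edgeR fit was run on simulated data with the same spread for every gene and no outlying library. That run does not give the error rate at the spread of these libraries. DESeq2 1.42.0 was an alternative. The SE is the size of the log2 change over the square root of F. Single values per library used exact permutation tests (scipy 1.17.1). Counting error is the least error that depth allows at 14205962 to 16474872 counts. No library pair of a group matched within counting noise (chi-square per degree of freedom at least 2.76). Members and lists were chosen with earlier results of these data known. Every tested member is named; of each list, the called genes of smallest p or, with none, the 2 of smallest p. Alternatives were other scalings, filters, length trend, replicate block, added copies and single libraries left out.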

Additional observations from a re-analysis of the deposited data

How the results depend on the processing

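All 15 tested genes were lower in homozygous libraries under each alternative, except mt-Co1 (0.08 without homozygous library 3, 0.15 without heterozygous library 1; range -0.28 to 0.15 with 1 library left out) and mt-Atp8 (0.04 with the length trend removed; 0.05, 0.08 and 0.67 without homozygous library 1, homozygous library 3 or heterozygous library 1; range -1.6 to 0.67). The cause was not tested. Of the 3 calls, mt-Nd4l was lost with the length trend removed (adjusted p = 0.0788). DESeq2 called 6 members, 558 genes in all and 4 list genes, against 3, 332 and 2 by edgeR. With no low-count filter, and so 40133 genes tested, edgeR called 13, 882 and 6. The 13 include mt-Co2, mt-Atp6, mt-Co3 and mt-Nd3, whose sums with the copies' reads overlapped and were not called with the filter. The adjusted p of mt-Nd2 by edgeR fell to 5.56e-45 without the filter, beside 0.0241 with it, and why was not tested. Same-numbered libraries did not deviate together (correlations -0.013, -0.184 and -0.116), and the labels do not pair them. With the replicate block the counts were 3, 163 and 0 (13 list genes at an unadjusted p under 0.05). With 1 library left out they ranged from 0 to 5, 51 to 2213 and 0 to 10, with the highest count over all genes without heterozygous library 1. The differences of single values kept their sign under every alternative but 1. The log2 ratio of mt-Rnr2 to mt-Rnr1 differed by between -0.23 and 0.01 with 1 library left out. The share of counts on all mitochondrial genes overlapped between genotypes with the copies' reads added, and in deposited TPM. Depth did not limit the abundant genes, but mt-Nd3 and mt-Atp8 had at most 112 counts in any library.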

Other observations

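The round spermatid RNA tables list no mitochondrial gene, and part of the nuclear copies received many reads there. Over the 9 nuclear copies examined, the share of counts was 0.298% and 0.269% in homozygous, 0.298% and 0.316% in heterozygous, and 0.386% and 0.275% in wild-type spermatid libraries (n = 2 each), with no ordering by genotype. In CB libraries the same 9 genes took 0.0295%, 0.0434% and 0.023% of counts in homozygous and 0.0694%, 0.0242% and 0.0286% in heterozygous libraries. Round spermatid and CB libraries differ in kit, input and the genes listed, and these were not compared by a test.

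In round spermatid libraries the 5 copies of highest mean count were Gm28661, Gm28437, Gm10925, Gm29216 and Gm28439. Gm28661 had 763 and 725 CPM of total counts in homozygous, 806 and 861 in heterozygous and 1060 and 774 in wild-type libraries. Gm29216 had 594 and 535 CPM in homozygous, 594 and 628 in heterozygous and 774 and 521 in wild-type libraries, but in CB libraries it received 51 reads in homozygous library 3 and 0 in the others. Gm28439 had 184 and 174 CPM in homozygous, 184 and 193 in heterozygous and 110 and 163 in wild-type libraries, and 0 reads in every CB library. By contrast Gm10222, the partner of mt-Nd4l, had 24 and 25 reads in homozygous spermatid libraries, 69 and 51 in heterozygous and 61 and 28 in wild-type ones, against 150 to 257 reads in homozygous and 263 to 714 in heterozygous CB libraries.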
